A study of Rattus norvegicus with 16 samples.

Results

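A set of 5 genes of the endothelin, nitric oxide and vascular endothelial growth factor (VEGF) systems was examined in the kidneys of rats given deoxycorticosterone acetate (DOCA) and salt. The set was drawn up as Edn1, Ednrb, Nos3, Vegfa and Kdr and was given as the Ensembl gene IDs ENSRNOG00000014361, ENSRNOG00000010997, ENSRNOG00000009348, ENSRNOG00000019598 and ENSRNOG00000046829. The deposited tables name genes by Ensembl ID only, and the reference table used here paired 0 of these IDs with a symbol. It could therefore not be checked which ID stands for which symbol, and each gene is reported by its ID alone. All 5 IDs were among the 32623 in the tables and among the 14628 tested after a filter on low counts. For the same reason, the other genes of these systems and the markers of kidney cell types could not be looked up, and the tissue label was not checked against markers.

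As background, endothelin-1 is a peptide that constricts vessels, and the endothelin B receptor both clears it and, in the collecting duct, promotes salt excretion. Endothelial nitric oxide synthase makes nitric oxide, which dilates vessels. Vegfa encodes a growth factor made in the kidney by podocytes and tubule cells, and Kdr encodes its main signalling receptor on the endothelium. These systems are known for their part in vascular tone, sodium handling and capillary upkeep in the kidney.

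Bulk RNA-Seq of whole kidney covered 16 libraries from male Sprague-Dawley rats, 4 in each of 4 groups. The labels give an age of 6 weeks, while the study's methods give 6 weeks as the time on DOCA, so the figure may not be the age of the animals. Control rats had a sham operation, sesame oil injections and tap water. DOCA rats had the left kidney removed, DOCA injections, salt in the drinking water and the vehicle by gavage. Finerenone rats and spironolactone rats had the same operation, DOCA and salt, plus finerenone, a nonsteroidal blocker of the mineralocorticoid receptor, or spironolactone, a steroidal one. Per the study's methods the drugs were given at different doses, so the drug groups were compared only as they were dosed. Control rats had neither the nephrectomy nor DOCA nor salt, so the effects of these cannot be told apart in a comparison with control.

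DOCA replicate 4 and spironolactone replicate 4 were set aside from the tests. The study left out 1 library of each of these groups as outliers without naming them, and these replicates were taken to be those libraries because its supporting values cover replicates 1 to 3. Pairwise chi-square values per gene set DOCA replicate 4 apart from its group, at 30.6 to 42.2 against 6.52 to 10.1 among the others, but did not do so for spironolactone replicate 4, at 11.7 to 14.5 against 9.79 to 17.3. With all 16 libraries the calls among the 5 genes were the same, and the values of both libraries are given below with the others. Total counts ranged from 7063146 to 10932887 per library. The libraries also differed in makeup along the groups. The 50 most abundant genes held 29.4% to 31.5% of the counts in control and 27.8% to 32.6% in finerenone, but 22.6% to 25.8% in DOCA and 22.4% to 25.5% in spironolactone. Values are therefore given as CPM, counts relative to 1000000 of a library total scaled by the trimmed mean of M values (TMM), and the effect of this scaling is described below. In whole kidney, fewer cells of a type and less RNA per cell cannot be told apart.

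Levels between genes were compared in TPM, the deposited transcript abundance relative to gene length and library total. ENSRNOG00000019598 had the highest TPM of the 5 in 16 of 16 libraries, with a mean of 36.4 TPM over the 14 fitted libraries. ENSRNOG00000010997, with a mean of 15.5 TPM, and ENSRNOG00000046829, with a mean of 14.4 TPM, followed. Their order was not fixed, since ENSRNOG00000010997 was the higher of the pair in 9 libraries and ENSRNOG00000046829 in 7. In control, ENSRNOG00000010997 measured 13.3 ± 1.65 TPM and ENSRNOG00000046829 12.7 ± 2.56 TPM (SD, n = 4), a gap within the spread of the libraries. ENSRNOG00000009348 averaged 2.41 TPM and ENSRNOG00000014361 averaged 1.82 TPM. ENSRNOG00000009348 was the higher of these in 13 of 16 libraries, and the exceptions were DOCA replicate 3 and spironolactone replicates 3 and 4.

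**Figure D1:**
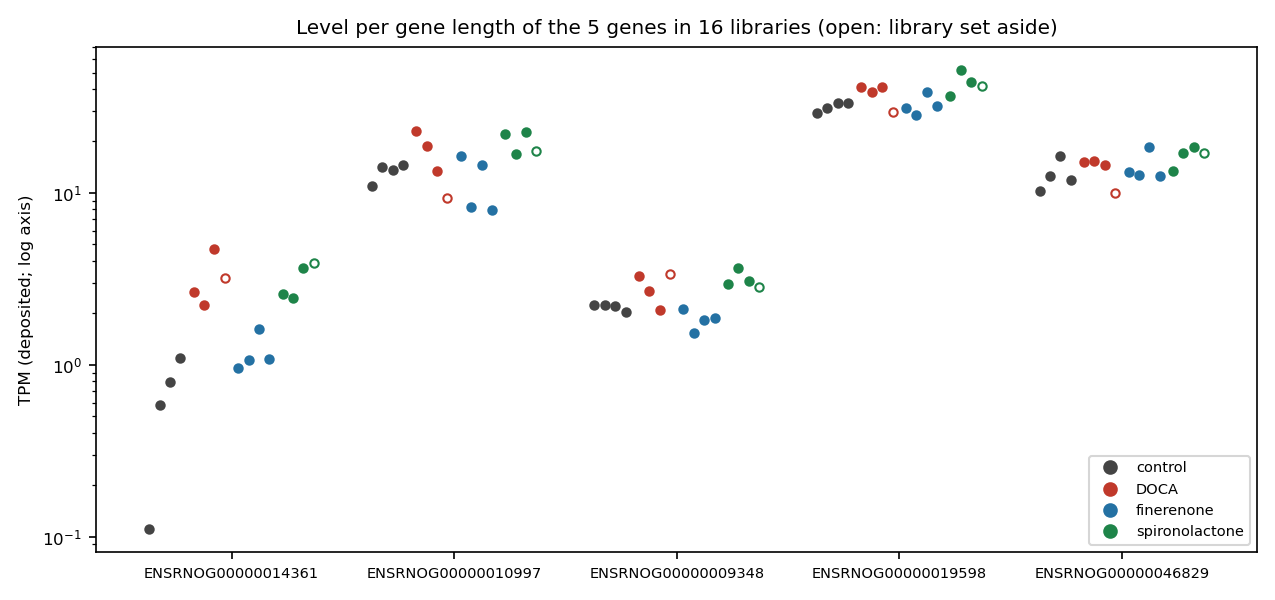
Deposited TPM on a log axis for the 5 gene IDs in 16 libraries, coloured by group, with the libraries set aside shown as open points. ENSRNOG00000019598 lies above the other genes in all 16 libraries, while ENSRNOG00000014361 spans the widest range on the log axis, from 0.11 to 4.72 TPM.

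The largest differences among the 5 genes were those of ENSRNOG00000014361, which rose in DOCA compared with control by 3.48-fold and in spironolactone compared with control by 3.18-fold. It was the least abundant of the set, so its values rest on few counts. In control, replicates 1 to 4 gave 1, 5, 7 and 9 counts, or 0.155, 0.780, 0.978 and 1.43 CPM. The first of these lies under a floor of 3 counts, which was 0.465 CPM in that library. In DOCA, replicates 1 to 3 gave 21, 17 and 39 counts, or 2.38, 2.14 and 4.32 CPM, and replicate 4, set aside, gave 27 counts or 3.23 CPM. All 4 DOCA libraries lay above all 4 control libraries. In finerenone, replicates 1 to 4 gave 8, 10, 14 and 9 counts, or 1.14, 1.42, 1.76 and 1.34 CPM. In spironolactone, replicates 1 to 3 gave 20, 20 and 29 counts, or 2.47, 2.19 and 3.44 CPM, and replicate 4, set aside, gave 45 counts or 3.65 CPM. Finerenone libraries overlapped with control and lay below every DOCA and every spironolactone library, whereas spironolactone libraries lay within the DOCA range. The share of all genes tested whose groups separate in this way is not given here. Such separations are therefore description only, for this gene and for those below.

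By the edgeR quasi-likelihood test, the log2 fold change of ENSRNOG00000014361 in DOCA compared with control was 1.80 ± 0.47 (SE), with a 95% interval of 1.76-fold to 6.89-fold and a Benjamini-Hochberg adjusted p of 0.00570. The gene was called, meaning an adjusted p under 0.05 and a log2 fold change of 0.5 or more in size. The call was lost without DOCA replicate 3, the library with the highest value, where the log2 fold change was 1.42 and the adjusted p 0.0510. In spironolactone compared with control, the log2 fold change was 1.67 ± 0.47 (SE), with a 95% interval of 1.60-fold to 6.33-fold and an adjusted p of 0.0103 in edgeR. This call held in all 14 fits that left out a library, with adjusted p between 0.00535 and 0.0474 in edgeR. Some of these left out a DOCA or finerenone library, which belongs to neither group compared, so they test the call little. Both comparisons share the control libraries, including the one with a single count.

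Every finerenone library lay below every DOCA library for ENSRNOG00000014361, at 1.42 ± 0.26 CPM (SD, n = 4) against 2.95 ± 1.19 CPM (SD, n = 3), but the difference did not pass the test. The log2 fold change was -1.05 ± 0.44 (SE), with an unadjusted p of 0.0277 and an adjusted p of 0.0978 in edgeR. Against control the finerenone group had a log2 fold change of 0.75 ± 0.48 (SE), with a 95% interval from 0.841-fold to 3.37-fold and an adjusted p of 0.396 in edgeR. The finerenone level thus passed the test against neither group. Spironolactone and DOCA differed by a log2 fold change of -0.13, with a 95% interval from 0.479-fold to 1.74-fold, an interval that spans changes in both directions. The drug groups compared directly gave a log2 fold change of -0.92 ± 0.44 (SE) for finerenone minus spironolactone, with an adjusted p of 0.164 in edgeR.

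Because ENSRNOG00000014361 had few counts, the spread was set against counting error. In DOCA its coefficient of variation over the fitted libraries was 40.5%, where counting alone gives 19.7%. In control it was 63.4% against 42.6% and in spironolactone 24.2% against 20.9%. In finerenone it was 18.3%, below the 31.2% from counting alone, so the finerenone libraries lay closer together than counting error alone gives on average. Summed over fitted libraries, 22 counts in control stood against 77 in DOCA, 41 in finerenone and 69 in spironolactone. A measure that needs no scaling between libraries, but rests on the same counts, gave the same order of groups. The other 4 genes it divides by had lower mean CPM in DOCA than in control, so it is not independent of the groups. Per 1000 counts of the other 4 genes in the same library, ENSRNOG00000014361 had 3.40 ± 2.15 counts in control (SD, n = 4) and 14.1 ± 6.52 in DOCA (SD, n = 3). In finerenone it had 6.17 ± 0.802 (SD, n = 4) and in spironolactone 11.7 ± 2.56 (SD, n = 3). The highest control library, at 5.91, lay below the lowest DOCA library, at 9.62.

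**Figure D2:**
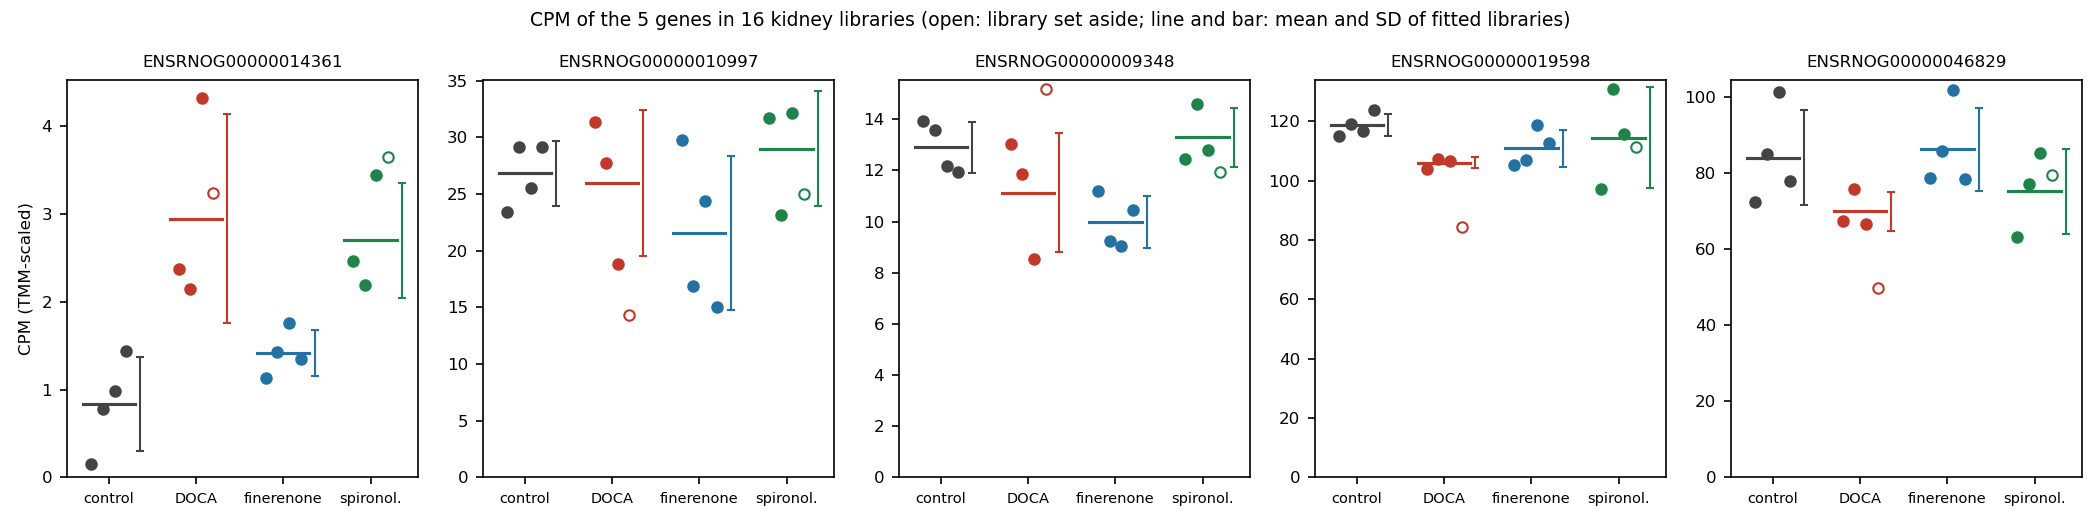
TMM-scaled CPM of each of the 5 gene IDs by group, 1 point per library, with the mean (line) and SD (bar) of the fitted libraries and the libraries set aside as open points. The 4 DOCA and 4 spironolactone libraries of ENSRNOG00000014361 all lie above the 4 control libraries, which reach 1.43 CPM, and the other genes show smaller separations.

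For ENSRNOG00000010997, the libraries of the DOCA, the finerenone and the spironolactone group lay further apart than the group means, which ran from 21.5 to 29.0 CPM. Control libraries gave 23.4, 29.2, 25.6 and 29.2 CPM. DOCA libraries gave 31.4, 27.7 and 18.8 CPM, with 14.4 CPM in the library set aside. Both the highest and the lowest DOCA values lay outside the control range. Finerenone libraries gave 29.8, 16.9, 24.4 and 15.1 CPM. Spironolactone libraries gave 31.7, 23.1 and 32.1 CPM, with 24.997 CPM in the library set aside. The coefficient of variation was 10.6% in control, 24.9% in DOCA, 31.6% in finerenone and 17.5% in spironolactone, against 6.37% to 8.01% from counting alone. All groups overlapped with control.

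With TMM scaling in edgeR the gene was called in none of the 6 comparisons, and other scalings gave calls that are listed with them below. In DOCA compared with control the log2 fold change of ENSRNOG00000010997 was -0.05 ± 0.22 (SE), with a 95% interval from 0.702-fold to 1.33-fold. The largest of its differences was -0.42 ± 0.22 (SE) for finerenone minus spironolactone, with an unadjusted p of 0.0683 in the edgeR fit.

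Each library carries a code in its label. For this gene, the ranges of libraries with different first numbers of the code did not overlap within the DOCA and finerenone groups. In DOCA, ENSRNOG00000010997 was at 27.7 to 31.4 CPM in both libraries with first number 7 and at 14.4 to 18.8 CPM in both libraries with first number 8. In finerenone, it was at 24.4 to 29.8 CPM with first number 2 and at 15.1 to 16.9 CPM with first number 3. The ranges overlapped in spironolactone, at 23.1 to 31.7 CPM with first number 4 and 24.997 to 32.1 CPM with first number 6. ENSRNOG00000014361 also separated by this number in DOCA, at 2.14 to 2.38 CPM for 7 and 3.23 to 4.32 CPM for 8, and in spironolactone, at 2.19 to 2.47 CPM for 4 and 3.44 to 3.65 CPM for 6, but overlapped in finerenone, at 1.14 to 1.76 CPM for 2 and 1.34 to 1.42 CPM for 3. ENSRNOG00000046829 separated in the same groups as ENSRNOG00000014361, at 67.5 to 75.8 CPM for 7 and 49.8 to 66.5 CPM for 8 in DOCA, and at 63.2 to 77.0 CPM for 4 and 79.5 to 85.3 CPM for 6 in spironolactone. It overlapped in finerenone, at 78.7 to 101.8 CPM for 2 and 78.5 to 85.7 CPM for 3. ENSRNOG00000009348 and ENSRNOG00000019598 overlapped between the numbers in DOCA, in finerenone and in spironolactone. The share of all genes that separate by this number was not determined, so these separations are description only. With 2 libraries per number in these groups, ranges can also separate by chance. The labels do not say what the number stands for, and each number occurs in a single group, so no difference between groups could be taken within it. With libraries that share the number summed before the fit, the calls of the 5 genes were the same.

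**Figure D3:**
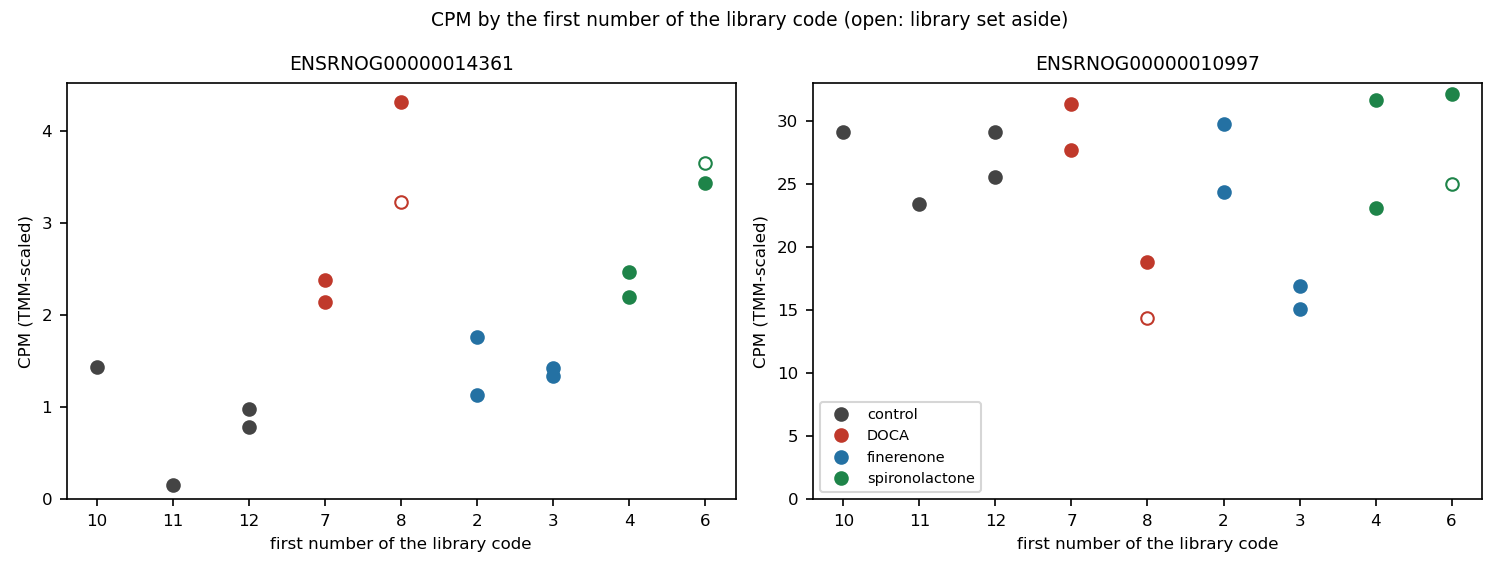
TMM-scaled CPM of ENSRNOG00000014361 (left) and ENSRNOG00000010997 (right) by the first number of the library code, coloured by group, with libraries set aside as open points. In DOCA, the libraries with number 8 lie below those with number 7 for ENSRNOG00000010997 and above them for ENSRNOG00000014361.

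ENSRNOG00000009348 had its lowest mean in finerenone. Control libraries gave 13.9, 13.6, 12.16 and 11.95 CPM, and DOCA libraries gave 13.02, 11.9 and 8.52 CPM, with 15.2 CPM in the library set aside. The DOCA range spanned that of control only with the library set aside, since the fitted DOCA libraries reached 13.02 CPM and control reached 13.9 CPM. Finerenone libraries gave 11.2, 9.25, 9.04 and 10.4 CPM. Spironolactone libraries gave 12.5, 14.6 and 12.8 CPM, with 11.9 CPM in the library set aside. Every finerenone library lay below every control and every spironolactone library. The share of all genes that separate in this way is not given here. An unadjusted p under 0.05 in edgeR was found for 20.6% of all genes between finerenone and control. Between finerenone and spironolactone it was found for 31.2%. Between finerenone and control the log2 fold change of ENSRNOG00000009348 was -0.37 ± 0.16 (SE), with an unadjusted p of 0.0310 and an adjusted p of 0.191 in edgeR. For finerenone minus spironolactone it was -0.41 ± 0.17 (SE), with an unadjusted p of 0.0234 and an adjusted p of 0.0963 in edgeR. With TMM scaling neither passed the threshold, and both lay under the minimum change for a call. Other scalings called the second, as given below. In DOCA compared with control the difference was -0.21 ± 0.17 (SE), and without DOCA replicate 3, the lowest, it was -0.0519.

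ENSRNOG00000019598 was the most abundant gene of the set and varied little within control and DOCA, with a coefficient of variation of 3.18% and 1.72%. Control libraries gave 115, 119, 117 and 124 CPM, and DOCA libraries gave 104, 107 and 107 CPM, with 84.4 CPM in the library set aside. All DOCA values were below all control values on this scale, but the share of all genes that separate so is not given here. The unadjusted p in edgeR was 0.0936, while 45.5% of all genes had one under 0.05 in this comparison. Finerenone libraries gave 105, 107, 119 and 113 CPM. Spironolactone libraries gave 97.0, 131 and 116 CPM, with 111 CPM in the library set aside, and ranged on both sides of control. In DOCA compared with control the log2 fold change of ENSRNOG00000019598 was -0.16 ± 0.09 (SE), with an adjusted p of 0.179 in edgeR and a 95% interval of 0.781-fold to 1.02-fold. In deposited TPM the same libraries stood the other way, at 31.7 ± 2.104 TPM in control (SD, n = 4) and 40.4 ± 1.41 TPM in DOCA (SD, n = 3). The gene was called in none of the 6 comparisons under any alternative, and no direction is given for it. With log2(TPM + 1) the adjusted p in limma was 0.027 for DOCA and 0.0063 for spironolactone compared with control. It was 0.0485 for finerenone minus DOCA and 0.0136 for finerenone minus spironolactone. These log2 fold changes, of 0.343, 0.453, -0.315 and -0.426 in turn, lay under the minimum change for a call.

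ENSRNOG00000046829 had its lowest mean CPM in DOCA, while its lowest mean TPM was in control, at 12.7 TPM against 15.02 TPM in DOCA. Control libraries gave 72.3, 84.9, 101 and 77.8 CPM, and DOCA libraries gave 67.5, 75.8 and 66.5 CPM, with 49.8 CPM in the library set aside. DOCA replicate 2 lay within the control range and the others below it. Finerenone libraries gave 78.7, 85.7, 102 and 78.5 CPM, all above the DOCA libraries, though the share of all genes that separate so is not given here. Spironolactone libraries gave 63.2, 77.0 and 85.3 CPM, with 79.5 CPM in the library set aside, and overlapped with every other group. The log2 fold change of ENSRNOG00000046829 was -0.27 ± 0.13 (SE) in DOCA compared with control, with an unadjusted p of 0.0494 and an adjusted p of 0.109 in edgeR. For finerenone minus DOCA it was 0.30 ± 0.13 (SE), with an unadjusted p of 0.0275 and an adjusted p of 0.0974 in edgeR. With all 16 libraries these were -0.37 with an adjusted p of 0.0329 and 0.41 with an adjusted p of 0.0321 in edgeR, still under the minimum change for a call. Over the 14 fitted libraries the sign in DOCA compared with control turned with library size alone and with TPM, and that in finerenone compared with DOCA turned with TPM. Finerenone and control differed by 0.04 ± 0.12 (SE) on the log2 scale, with a 95% interval from 0.866-fold to 1.21-fold.

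Across the set, 1 of 5 genes was called in DOCA compared with control, where 26.7% of the 14628 genes tested were called, and 1 of 5 in spironolactone compared with control, where 24.6% were. Both calls were of ENSRNOG00000014361, and both counts lie near the share of all genes. In finerenone compared with DOCA 0 of 5 genes were called by edgeR against 13.7% of all genes, and 2 of 5 had an unadjusted p under 0.05, as had 34% of all genes. Between finerenone and control 0 of 5 were called against 4.18% of all genes, with 1 of 5 at an unadjusted p under 0.05, as were 20.6% of all genes. For finerenone against spironolactone 0 of 5 were called against 11.4% of all genes, with 1 of 5 at an unadjusted p under 0.05, as were 31.2% of all genes. DESeq2 and limma-voom made the same number of calls among the 5 in each comparison. In spironolactone compared with DOCA 0 of 5 genes were called and 0 had an unadjusted p under 0.05, and 0% of all genes were called in edgeR, with 578 genes at an unadjusted p under 0.05 and 11 called by DESeq2. The comparisons share libraries and are not independent of each other.

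The median log2 fold change of the 5 genes was -0.16 in DOCA compared with control, against 0.02 over all genes tested. It was -0.16 in finerenone compared with DOCA, against -0.03 over all genes. For spironolactone minus DOCA it was 0.11, against 0.01. It was -0.10 for finerenone minus control, against -0.01, and 0.04 for spironolactone minus control, against 0.02. The median for finerenone minus spironolactone was -0.41, against -0.04 over all genes. With 5 genes each of these medians is the value of a single gene, and none of those values was called with TMM scaling. A shift of the set was not tested.

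**Figure D4:**
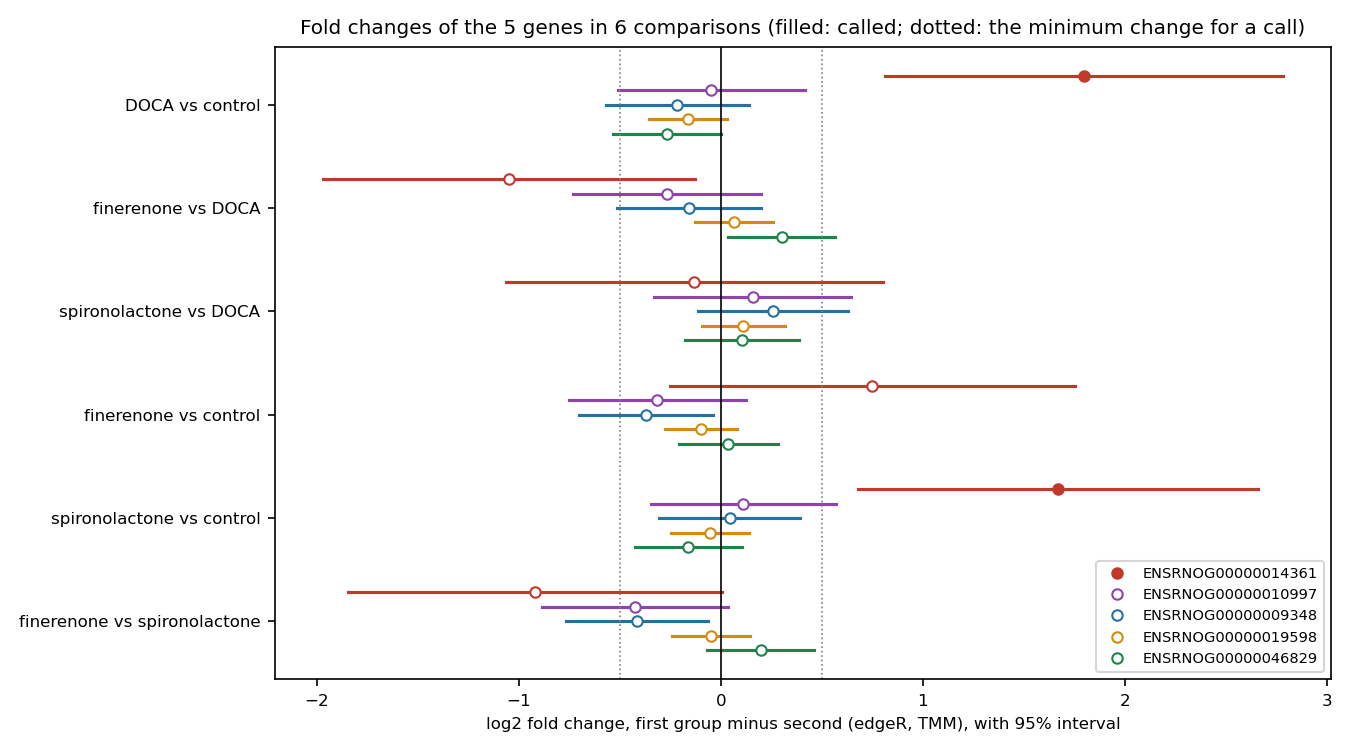
Log2 fold change with its 95% interval for each of the 5 gene IDs in the 6 comparisons, first group minus second, from edgeR with TMM scaling. Filled points are the 2 calls, both of ENSRNOG00000014361 against control, at 1.80 and 1.67, and most other intervals include 0.

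The direction of the smaller differences depended on how libraries were scaled. With total counts alone, or with TPM, the median of all genes in DOCA compared with control moved from 0.02 to 0.37 on the log2 scale, and to 0.42 for log2(TPM + 1). On these scales the values of ENSRNOG00000010997, ENSRNOG00000009348, ENSRNOG00000019598 and ENSRNOG00000046829 turned from negative to positive. With total counts alone they were 0.30, 0.13, 0.18 and 0.08 in turn, each below the median of all genes. ENSRNOG00000014361 stayed called in DOCA and in spironolactone compared with control under all 14 alternatives other than leaving out a library. Among these, no minimum change could not lose a call. The log2 fold changes were 1.34 to 2.32 and 1.27 to 2.24. Both low ends came with log2(TPM + 1), where the added 1 exceeds the control mean of 0.64 TPM, and both high ends with log2(TPM + 0.1). They are therefore not on the same measure as the count-based values. Between finerenone and DOCA, ENSRNOG00000014361 was called with total counts alone (edgeR) and on both TPM scales (limma), and ENSRNOG00000010997 on both TPM scales, at -0.63 and -0.68 with adjusted p of 0.0411 and 0.0437. The median of all genes was -0.29 with total counts alone, against -0.03 with TMM.

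For finerenone minus spironolactone, ENSRNOG00000010997 was called at -0.64 with total counts alone and at -0.80 and -0.85 on the TPM scales, with adjusted p of 0.0387 in edgeR and 0.0153 and 0.0171 in limma. ENSRNOG00000009348 was called there in the same 3 settings, at -0.64, -0.57 and -0.78, with adjusted p of 0.0100 in edgeR and 0.00740 and 0.00959 in limma. ENSRNOG00000014361 was called there with log2(TPM + 1), at -0.84 and an adjusted p of 0.0121 in limma. Between spironolactone and control, limma called ENSRNOG00000010997 with log2(TPM + 1), at 0.58 and an adjusted p of 0.0470, and ENSRNOG00000009348 with log2(TPM + 0.1), at 0.55 and an adjusted p of 0.0351. The median of all genes moved in the same direction as each of these values. For each of the 5 genes the ratio of count to TPM, taken relative to that of other genes of the library, varied by at most 1.29% between libraries, so counts and TPM differed in library scaling and not in gene length.

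**Figure D5:**
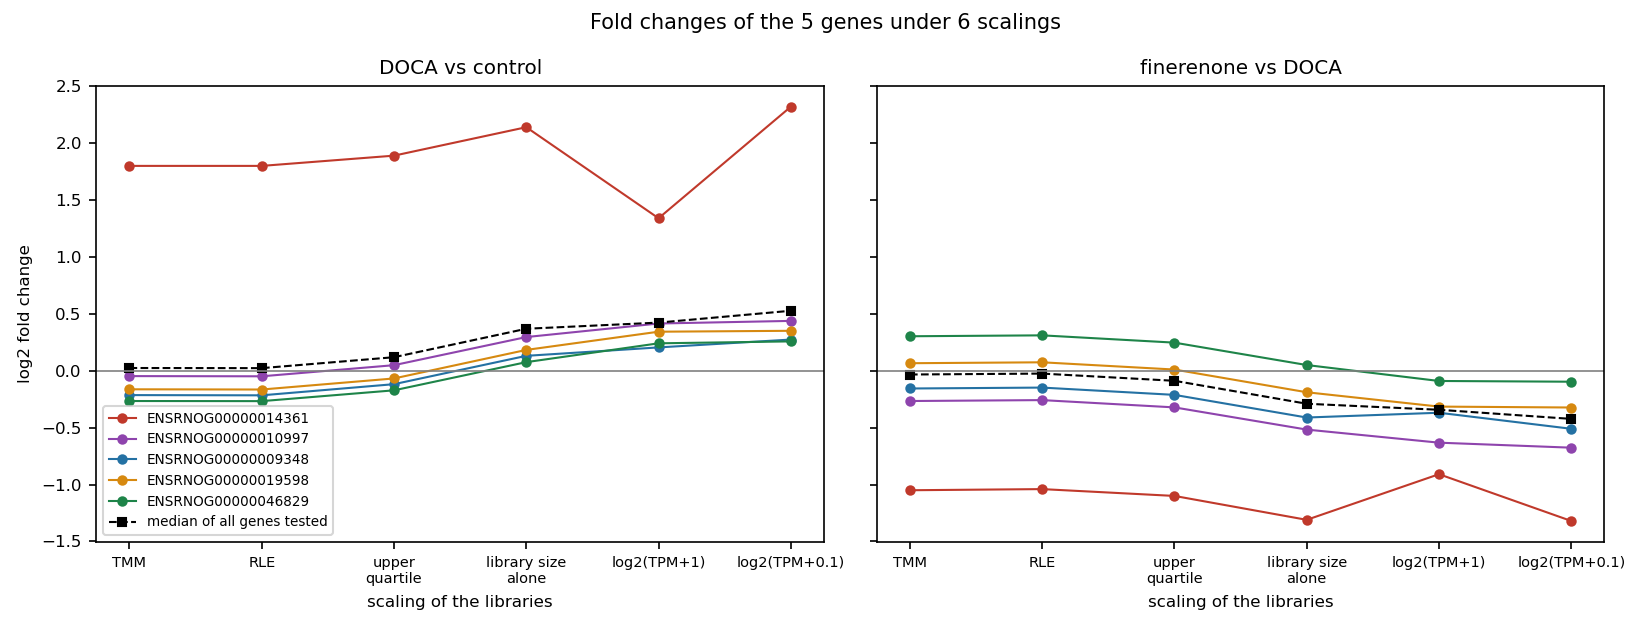
Log2 fold change of the 5 gene IDs (coloured lines) and the median of all genes tested (dashed) under 6 scalings, for DOCA compared with control (left) and finerenone compared with DOCA (right). In the left panel the lines of 4 genes cross 0 as the median of all genes moves from 0.02 with TMM to 0.37 with library size alone, while ENSRNOG00000014361 stays above 1.

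ENSRNOG00000014361 was also the only one of the 5 with genes that tracked it closely. Over the 14 fitted libraries, 28 of 12410 genes with a mean log2 CPM of at least 1 had a Pearson correlation of log2 CPM with it of at least 0.9, the highest at 0.956. For the other 4 genes there were 0 such genes, and the highest correlations lay between 0.799 and 0.886. These correlations share the differences between groups and are given as a description, and none of these genes is named because the IDs could not be paired with symbols.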

How the data were processed

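Bulk RNA-Seq of polyadenylated, strand-specific RNA was analyzed in 16 rat kidney libraries. Per the labels and the study's methods, the authors used FASTQC for read quality, Trim Galore 0.4.5 for trimming, STAR 2.7.3a for alignment to rn6 (Rnor 6.0) and RSEM for gene counts. The annotation is not given in the sources used here. The deposited estimated counts are RSEM values per gene, not scaled, and 3.14% were not whole. The deposited TPM values are relative to gene length and library total. Groups and replicate numbers came from the labels. The labels do not say that each library is a separate animal, so p-values measure the spread between these samples.

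The 5 members and the lists were chosen with earlier results of these data known. The rule for named genes was to describe these 5 IDs in all libraries and comparisons, and to name no other gene if IDs could not be paired with symbols. The pathway lists and kidney cell type marker lists were not applied for that reason. Counts were rounded and tested with edgeR 4.0.16 in R 4.3.3 (quasi-likelihood F test, robust, TMM), in a fit of 4 groups over 14 libraries with no block. The filter kept genes that had more than 4 counts in 3 or more libraries. P-values were adjusted by the Benjamini-Hochberg method over 14628 genes. The F statistic and the fold change gave the standard errors. Alternatives were RLE, upper quartile and library size scaling, filterByExpr and no filter, DESeq2 1.42.0, limma-voom, limma 3.58.1 on TPM (log2 after adding 1 or 0.1), all 16 libraries, 2-group fits, the replicate block, summing libraries that share a code number, no minimum change, and leaving out each library. The tests were checked on simulated data. A floor of 3 counts was 0.243 to 0.478 CPM per library. Counting intervals and floors cover counting error only. Libraries of a group differed by more than sampling noise, so none was counted as a duplicate.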

Additional observations from a re-analysis of the deposited data

Results flagged for a closer look

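In the DOCA group, ENSRNOG00000019598 measured 84.4 CPM in replicate 4, far from the other 3 libraries, which lay between 104 and 107 CPM. The gap was 0.848 of the group's whole range, above Dixon's 95% critical value for 4 samples. This library had been set aside from the tests. It was the only one of 20 sets of 4 libraries (5 genes in 4 groups) that stood out in this way, and chance alone gives about 1 in 20.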

How the results depend on the processing

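The log2 fold changes of the 5 genes and the counts of called genes were recomputed in 6 comparisons under 14 alternatives and without each of the 14 fitted libraries. Of the fold changes under the alternatives, 376 kept their direction and side of the threshold, 14 passed the threshold newly and 30 changed sign. The alternative with no minimum change uses the main fit, so its fold changes are the same by construction and count among the 376. All sign changes among the alternatives came with upper quartile, library size alone or TPM, each of which shifts the median of all genes. The TPM alternatives also change the test to limma, and the cause of the sign changes seen with TPM alone was not tested. In DOCA compared with control, ENSRNOG00000010997 was 0.0489 after upper quartile scaling, and ENSRNOG00000010997, ENSRNOG00000009348, ENSRNOG00000019598 and ENSRNOG00000046829 were 0.30, 0.13, 0.18 and 0.0756 by library size alone, 0.41, 0.21, 0.34 and 0.24 with log2(TPM + 1), and 0.44, 0.27, 0.35 and 0.26 with log2(TPM + 0.1). In finerenone compared with DOCA, ENSRNOG00000019598 was -0.19 under library size alone, -0.31 with log2(TPM + 1) and -0.32 with log2(TPM + 0.1), and ENSRNOG00000046829 was -0.0899 and -0.0964 on the TPM scales. In finerenone compared with control, ENSRNOG00000019598 was 0.0273 with log2(TPM + 1) and 0.0279 with log2(TPM + 0.1). In spironolactone compared with control, ENSRNOG00000019598 was 0.0336 under the upper quartile, 0.27 under library size alone, and 0.45 and 0.46 on the TPM scales, and ENSRNOG00000046829 was 0.15, 0.34 and 0.36 with the last 3 of these. For finerenone minus spironolactone, ENSRNOG00000046829 was -0.0231 for library size alone and -0.19 and -0.20 on the TPM scales.

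The count of called genes became 1 by library size alone and 2 on both TPM scales in finerenone compared with DOCA, 2 on both TPM scales in spironolactone compared with control, and 2 under library size alone, 3 with log2(TPM + 1) and 2 with log2(TPM + 0.1) for finerenone against spironolactone.

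Without 1 library, the count called in DOCA compared with control ranged from 0 to 1, the 0 being without DOCA replicate 3. Leaving out 1 library also gave a change of sign for small values. In DOCA compared with control, ENSRNOG00000010997 ranged from -0.21 to 0.14. In spironolactone compared with DOCA, ENSRNOG00000014361 ranged from -0.34 to 0.25 and ENSRNOG00000010997 from -0.0288 to 0.32. In finerenone compared with control, ENSRNOG00000046829 ranged from -0.0292 to 0.14. In spironolactone compared with control, ENSRNOG00000019598 ranged from -0.16 to 0.0551 and ENSRNOG00000009348 from -0.0296 to 0.0875. For finerenone minus spironolactone, ENSRNOG00000019598 ranged from -0.15 to 0.0612. None of these values was called.

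With the replicate number as a block (replicate block), 1 gene was called in DOCA compared with control and 1 in spironolactone compared with control, both ENSRNOG00000014361, at log2 fold changes of 1.96 and 1.87, and 0 in the other comparisons. Deviations of same-numbered libraries correlated at -0.0752 to 0.143 and in no comparison were all above 0.1, so the numbers were not taken to pair the libraries. At 1 to 45 counts per library, ENSRNOG00000014361 is limited by depth, and its 95% interval in DOCA compared with control ran from 0.82 to 2.79 on the log2 scale.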
